A study of Zea mays with 2 samples.

Results

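A set of 142 nuclear loci with lower transcript levels in opaque2 mutant endosperm than in wild type endosperm is described here, out of 44119 loci listed in maize (Zea mays). The loci lie on 9 chromosomes. Chromosome 7, the first 10 Mb of chromosome 4 and the stretch of chromosome 3 from 15 to 30 Mb were left out by the rule. Within the remaining 39767 loci, a locus was eligible when its span was 300 bp or more, its value was above 0 in both genotypes, the higher value was 20 FPKM or more and the mean was below 500 FPKM. FPKM are fragments scaled by transcript length and library size. Of the 5135 eligible loci, 142 had a ratio of opaque2 over wild type of 0.5 or less after 1 FPKM was added to each value, which is 2.77% of them. The members were thus chosen by these same FPKM values and their ratio. The lower level in opaque2 describes that choice and is not a finding, and nothing is read from the share.

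Both samples were endosperm, collected 15 days after pollination (DAP), and the sample source was given as kernel. The groups were wild type and the opaque2 mutant, and allele and inbred background are not stated in the labels. Each genotype had 1 value per locus. The design text speaks of triplicates, but how they relate to that value is not stated. Differences therefore stand without replicates and without p-values. No counts come with the values, so the depth of either library is unknown. In bulk tissue, fewer cells of a type and less RNA per cell cannot be told apart. The files name no nuclear genes, so the labelled tissue and mutation were not checked against marker genes, and each locus is given by its position in the genome build of the files, which is not stated.

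The opaque2 gene encodes a bZIP transcription factor, active in the starchy endosperm during grain filling. It binds promoters and is best known for activating genes of zeins, the storage proteins of the maize kernel, and genes of amino acid and carbon metabolism. Kernels of the mutant have a soft, chalky endosperm and contain less zein and a larger share of lysine. Whether any locus described here is a target of Opaque2 was not tested, and no function is assigned to any of them.

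In wild type the 142 loci were all well above the median of 1.62 FPKM over all listed loci, as the floor of the rule sets. The size of the difference was mostly moderate. Wild type levels ran from 20.5 to 605 FPKM with a median of 42.9, and opaque2 levels ran from 0.466 to 206 FPKM with a median of 14.3. The ranges of both genotypes thus overlapped across loci, although every single locus was lower in opaque2 by the rule. The 95th percentile of all listed values was 47.5 FPKM in wild type, with 64 of the loci above it, and 49.7 FPKM in opaque2, with 21 above it. In sum the loci held 11607 FPKM in wild type and 3937 FPKM in opaque2, 2.95-fold less. That was 0.543% of all listed FPKM in wild type and 0.184% in opaque2. The median log2 ratio was −1.44, with quartiles at −1.79 and −1.19, beside a median of 0.01 over all 5135 eligible loci.

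**Figure D1:**
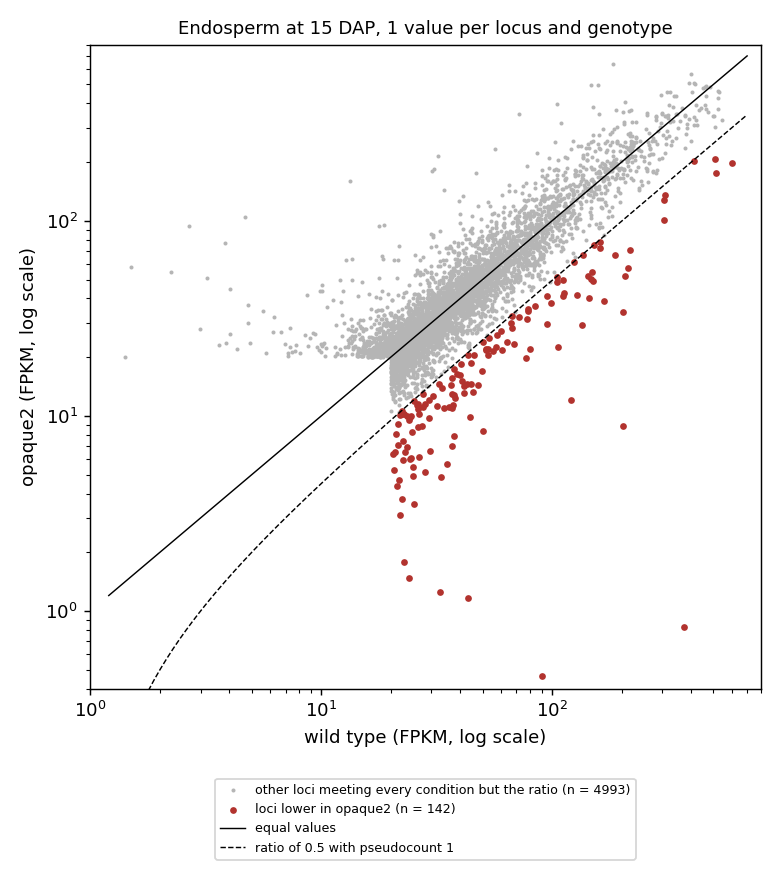
Level of each eligible locus in wild type (x axis, FPKM, log scale) and in opaque2 (y axis, FPKM, log scale), with the 142 lower loci in red and the other 4993 eligible loci in grey. The solid line marks equal values and the dashed line the ratio of 0.5, and 8 of the red points lie 8-fold or more below equality with the pseudocount of 1.

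Most loci were only a little beyond the limit. A total of 93 loci (65.5%) were from 2-fold to under 3-fold lower, 23 from 3-fold to under 4-fold, 18 from 4-fold to under 8-fold and 8 by 8-fold or more. A mirrored set of 138 eligible loci, 2.69%, was 2-fold or more higher in opaque2, and its bands held 84, 21, 24 and 9 loci. The numbers of lower and higher loci were thus similar at each size of difference. At the limit, the lower loci and those just missed were nearly alike. The last locus inside, on chromosome 4 at 148017529 to 148020116, had 105 FPKM in wild type and 51.8 FPKM in opaque2 (log2 ratio −1.0005). The first outside, on chromosome 8 at 80292354 to 80295000, had 98.1 FPKM in wild type and 48.7 FPKM in opaque2 (log2 ratio −0.99). The next 4 inside reached −1.02, and the next 4 outside reached −0.98.

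The largest differences were found at loci of quite unequal level in wild type. On chromosome 5 at 107924664 to 107925342, over 679 bp, the level was 374 FPKM in wild type and 0.824 FPKM in opaque2 (log2 ratio −7.68). It was the highest member on its chromosome in wild type and among the lowest of all members in opaque2. A locus on chromosome 6 at 121390345 to 121391179 followed, with 90.7 FPKM in wild type and 0.466 FPKM in opaque2, the lowest opaque2 level of the set (log2 ratio −5.97). Next came chromosome 8 at 109163217 to 109164387, with 203 FPKM in wild type and 8.84 FPKM in opaque2 (log2 ratio −4.37). Of these leading loci, the one on chromosome 8 kept the highest level in opaque2, and none of them shared its position with another locus.

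On chromosome 2 at 6458506 to 6459190 the level was 43.1 FPKM in wild type and 1.16 FPKM in opaque2 (log2 ratio −4.35). Chromosome 9 carried a pair of such loci. The locus at 23451431 to 23451992 had 32.6 FPKM in wild type and 1.24 FPKM in opaque2 (log2 ratio −3.90), and that at 10275486 to 10277630 had 23.9 and 1.47 FPKM (log2 ratio −3.34). Values of opaque2 near 1 FPKM are as small as the pseudocount, so these log2 ratios depend on it. On chromosome 5 at 18170761 to 18172340 the level was 121 FPKM in wild type and 12.1 FPKM in opaque2 (log2 ratio −3.22). The last locus past 8-fold, on chromosome 6 at 157412166 to 157414715, had 22.9 FPKM in wild type and 1.78 FPKM in opaque2 (log2 ratio −3.11).

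Below 8-fold, 18 further loci were at least 4-fold lower. On chromosome 10 at 141554666 to 141556389 the level was 203 FPKM in wild type and 34.0 FPKM in opaque2 (log2 ratio −2.54). This locus had the highest wild type level of the 18. At nearly the same ratio, chromosome 6 at 149353219 to 149354478 had 32.9 FPKM in wild type and 4.84 FPKM in opaque2 (log2 ratio −2.54). Chromosome 1 at 249418817 to 249421594 had 25.2 FPKM in wild type and 3.53 FPKM in opaque2 (log2 ratio −2.53). Chromosome 3 at 181748417 to 181750299 had 21.9 FPKM in wild type and 3.11 FPKM in opaque2 (log2 ratio −2.47). These complete the 12 lowest ratios. Over all 26 loci past 4-fold, which are 0.506% of the eligible loci, 10 were below 30 FPKM in wild type and 7 were at 100 FPKM or more. In opaque2, 12 of the 26 were below 5 FPKM.

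The remaining 14 loci past 4-fold, named after their values were seen, had log2 ratios from −2.45 to −2.003. Their highest wild type level was that of chromosome 9 at 138945494 to 138945923, with 168 FPKM in wild type and 38.7 FPKM in opaque2. The longest span among them, 19054 bp on chromosome 1 at 301161971 to 301181024, was that of a position shared by 3 loci. Its log2 ratio was −1.17 in sum and −0.18 for the loci outside the set. The member there had 37.0 FPKM in wild type and 6.98 FPKM in opaque2. Another long one, on chromosome 4 at 175739965 to 175751055, had 134 FPKM in wild type and 29.3 FPKM in opaque2. The shortest, 337 bp on chromosome 5 at 186401229 to 186401565, had 24.9 FPKM in wild type and 4.92 FPKM in opaque2. Loci with differences past 4-fold were therefore present at listed positions of 337 to 19054 bp. The span of a shared position need not be that of its member.

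**Figure D2:**
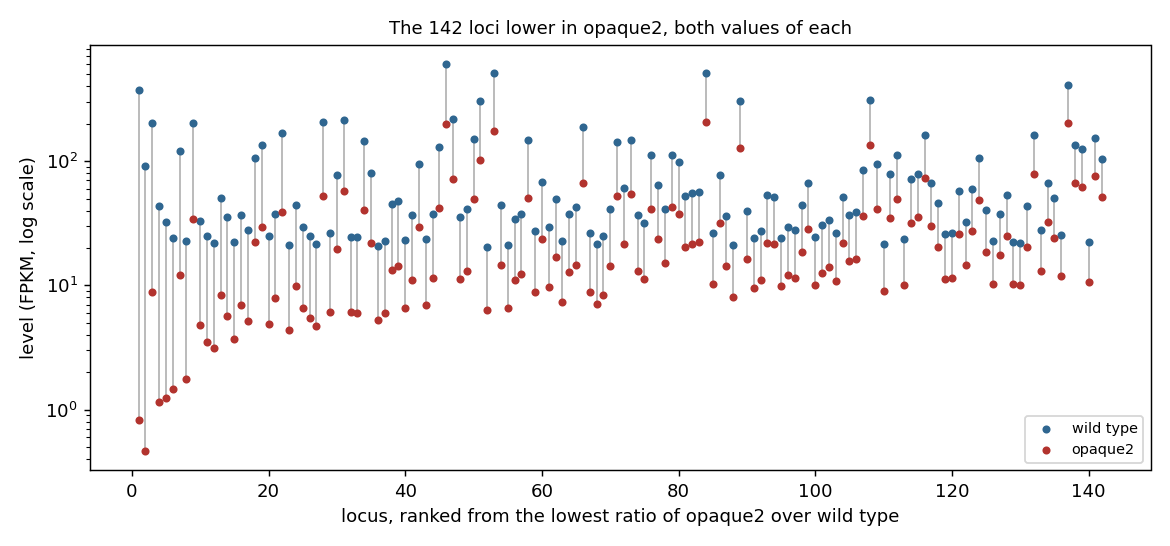
Both values of each of the 142 loci (y axis, FPKM, log scale), ranked on the x axis from the lowest ratio, with wild type in blue, opaque2 in red and a line joining them. The distance between the points is set by the rule at the right end, and at the left end 6 loci reach 1.78 FPKM or less in opaque2.

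The 10 members of highest wild type level include the locus of lowest ratio on chromosome 5, and the others follow here. Chromosome 1 held the highest at 161774740 to 161775462, with 605 FPKM in wild type and 199 FPKM in opaque2 (log2 ratio −1.60). Its mean lay nearest to the ceiling of 500 FPKM, and the nearest lower locus above that ceiling, on chromosome 6 at 145987055 to 145997616, had 1060 FPKM in wild type and 402 FPKM in opaque2. The second, on chromosome 6 at 31566979 to 31568811, came with 512 FPKM in wild type and 175 FPKM in opaque2 (log2 ratio −1.54). It was followed by chromosome 9 at 94014873 to 94019863, with 510 FPKM in wild type and 206 FPKM in opaque2 (log2 ratio −1.30). These 3 loci had opaque2 levels well above the set's median wild type level.

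Of the next in level, chromosome 1 at 15414787 to 15415199 had 412 FPKM in wild type and 202 FPKM in opaque2, close to the limit of the rule (log2 ratio −1.02). After the chromosome 5 locus of lowest ratio came another of that chromosome at 183151674 to 183153436, with 309 and 135 FPKM (log2 ratio −1.18). Chromosome 8 at 132717642 to 132719231 had 305 FPKM in wild type and 102 FPKM in opaque2 (log2 ratio −1.58). At almost the same wild type level, chromosome 5 at 75935116 to 75939320 had 304 and 128 FPKM (log2 ratio −1.25). Last among these 10 were chromosome 3 at 199749280 to 199750442, with 218 and 71.3 FPKM (log2 ratio −1.60), and chromosome 8 at 72976461 to 72978277, with 213 and 57.4 FPKM (log2 ratio −1.87). Apart from the one locus at −7.68, the 10 loci of highest wild type level thus had log2 ratios between −1.87 and −1.02.

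Members occurred on each of the 9 chromosomes at similar shares of the eligible loci. Chromosome 1 had the most, 31 of 925 eligible loci (3.35%), and chromosome 9 the highest share, 16 of 445 (3.60%). Chromosome 4 beyond its first 10 Mb had the lowest share, 10 of 537 (1.86%). The others lay between, with 13 of 636 on chromosome 2 (2.04%), 13 of 533 on chromosome 3 (2.44%), 9 of 331 on chromosome 10 (2.72%), 19 of 680 on chromosome 5 (2.79%), 15 of 509 on chromosome 6 (2.95%) and 16 of 539 on chromosome 8 (2.97%). Eligible loci higher in opaque2 ran from 1.31% on chromosome 3 to 4.13% on chromosome 6, a wider range than that of the lower ones. Summed over the members of a chromosome, opaque2 was between 2.62-fold lower, on chromosome 1, and 3.42-fold lower, on chromosome 8. The median log2 ratio of members ran from −1.74 on chromosome 9 to −1.25 on chromosome 2 and on chromosome 5. Where a chromosome has not yet been represented by its member of highest wild type level, these were as follows. On chromosome 2 at 2040400 to 2047121 the level was 144 FPKM in wild type and 40.2 FPKM in opaque2. On chromosome 4 at 183912540 to 183913372 it was 152 and 75.2 FPKM. On chromosome 10 at 16517475 to 16520678 it was 208 and 52.0 FPKM, which is 3.94-fold lower with the pseudocount.

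The share of lower loci was greatest among short positions, and the same held for higher loci. Of 442 eligible loci of 300 to under 1000 bp, 36 were members (8.14%). Of 556 loci of 1000 to under 2000 bp, 25 were members (4.50%), and of 2135 loci of 2000 to under 5000 bp, 52 (2.44%). Of 2002 loci of 5000 bp or more, 29 were members (1.45%). The shares of higher loci in the same bands were 8.82%, 5.40%, 2.06% and 1.25%, so that both directions became rarer with span. The median span was 2232.5 bp for members, 1945 bp for the higher loci and 4072 bp for all eligible loci.

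Shares also differed with level, again in both directions. Among loci whose higher value was 20 to under 30 FPKM, 2.52% were members, and 2.31% and 2.44% in the bands to 50 and to 100 FPKM. At 100 to under 200 FPKM the share was 4.75% (21 of 442), and at 200 FPKM or more it was 5.44% (13 of 239). The higher loci made up 4.75% and 5.86% of these last bands. The share of lower loci was thus similar across levels up to 100 FPKM and larger above. In the last band, the ceiling on the mean removed loci that were very high in both genotypes. Loci as high in one genotype were kept if the other value was low enough. The shares of that band, in both directions, are therefore in part set by the rule, by an amount that was not measured. The band of 100 to under 200 FPKM lies below the ceiling.

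**Figure D3:**
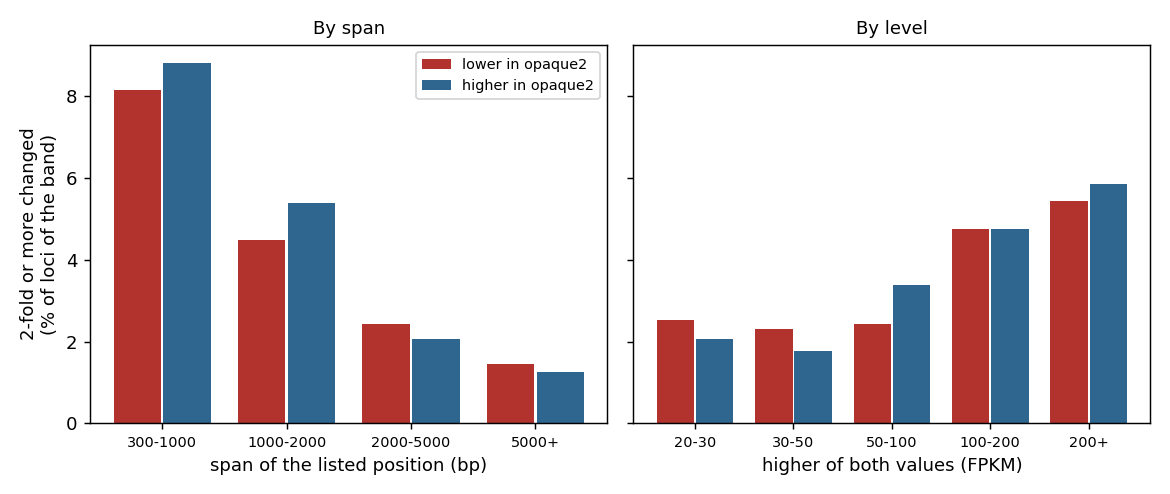
Percentage of eligible loci that differed at least 2-fold (y axis) by the span of the position in bp (left) and by the higher of both values in FPKM (right), with loci lower in opaque2 in red and higher in blue. Among lower loci the percentage goes from 8.14% in the shortest band to 1.45% in the longest.

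A large part of the members shared their listed position with other loci. The files list 39041 nuclear positions, and none of these overlaps another, so that a position listed for several loci stands for a group of gene models. Of the 142 members, 53 (37.3%) were at such a position, beside 24.8% of all eligible loci and 29.0% of the higher loci. The share of eligible loci at shared positions was larger in longer bands of span. Within bands, members had larger shares than eligible loci from 1000 bp upward. These were 40% of members against 19.1% of eligible loci at 1000 to under 2000 bp, 46.2% against 22.6% at 2000 to under 5000 bp, and 62.1% against 33.4% at 5000 bp or more. Among loci of 300 to under 1000 bp it was the reverse, with 1 of 36 members (2.78%) against 4.30% of eligible loci. For the higher loci the shares from 1000 bp upward were 16.7%, 50% and 44%, so that in the middle band they were as high as for members. How the authors' software divided reads among loci of one position is not stated, and its part in these values was not tested.

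The other loci of these positions differed less than the members at most positions where they could be assessed. Members were chosen by their ratio, so this contrast is in large part set by the rule and is not a finding. The 53 members lay at 51 positions, 44 of 2 loci and 7 of 3 loci. At 2 of these positions, both loci were members. On chromosome 3 at 201092983 to 201095214 one had 68.1 FPKM in wild type and 23.4 FPKM in opaque2, and the other had 50.3 and 8.36 FPKM. On chromosome 1 at 223161919 to 223165472 the pair had 37.5 and 24.8 FPKM in wild type and 17.5 and 8.29 FPKM in opaque2.

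At 33 of the other 49 positions the remaining loci together reached 5 FPKM in the higher genotype, and the 16 with less were not assessed in this way. Their log2 ratios had a median of −0.26 and ran from −1.64 to 0.37. They were below 0 at 29 of the 33 positions. Over all positions of 5 FPKM or more without a member, 54.3% were below 0 and the median log2 ratio was −0.03. Those are sums over whole positions, shared or not, whereas the sums at the 33 leave out the member. The 2 sets are thus not alike, and other shared positions were not taken apart in this way. Differences under 1.5-fold were found at 23 of the 33 positions, and the remaining loci were 2-fold or more lower at 3 and 2-fold or more higher at 0. Summed over all its loci, a position with a member had a median log2 ratio of −1.17. At 35 of the 51 positions the sum was 2-fold or more lower in opaque2, at 16 it was short of that, and at 0 it was higher. Each sum includes a member chosen as lower, so its direction is largely set by the rule too.

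Among members at positions shared with loci outside the set, the 6 of highest wild type level show both patterns. The position on chromosome 10 at 141554666, past 4-fold, had 6.02 FPKM in wild type and 3.96 FPKM in opaque2 at its other locus, and 209 and 37.9 FPKM in sum. For chromosome 3 at 199749280 the other locus had 5.37 and 3.53 FPKM, so that the sum was close to the member alone. On chromosome 5 at 183151674 the other locus had 35.0 FPKM in wild type and 27.8 FPKM in opaque2. Still on chromosome 5, at 75935116, the other locus was slightly higher in opaque2, with 37.1 FPKM against 32.3 FPKM, and the sum was 165 FPKM against 336 FPKM (log2 ratio −1.03). On chromosome 2 at 2040400 the other locus had 16.6 FPKM in wild type and 14.6 FPKM in opaque2. Chromosome 1 at 194657095 was shared by 3 loci, of which the member had 148 FPKM in wild type and 50.5 FPKM in opaque2. Its remaining loci summed to 66.9 and 60.6 FPKM, and the whole position had a log2 ratio of −0.95, short of 2-fold.

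The order of the loci turned at 10 of the 49 positions with loci outside the set. There the member was above the sum of the others in wild type and below it in opaque2. Members were chosen as lower in opaque2, so the rule favours a turn in this direction, and it is not a finding. Turns at other shared positions were not counted. Chromosome 1 at 194657095 is one of the 10 positions. Named after their values were seen, chromosome 6 at 124658159 to 124668075 and chromosome 1 at 172936435 to 172940878 are further examples. The former had a member with 106 FPKM in wild type and 22.5 FPKM in opaque2, while its other locus had 41.6 and 35.5 FPKM. In the latter the member had 37.5 and 7.88 FPKM, and the others summed to 26.2 FPKM in wild type and 34.1 FPKM in opaque2. This was the position where the other loci were most raised relative to wild type, and its sum had a log2 ratio of −0.59.

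**Figure D4:**
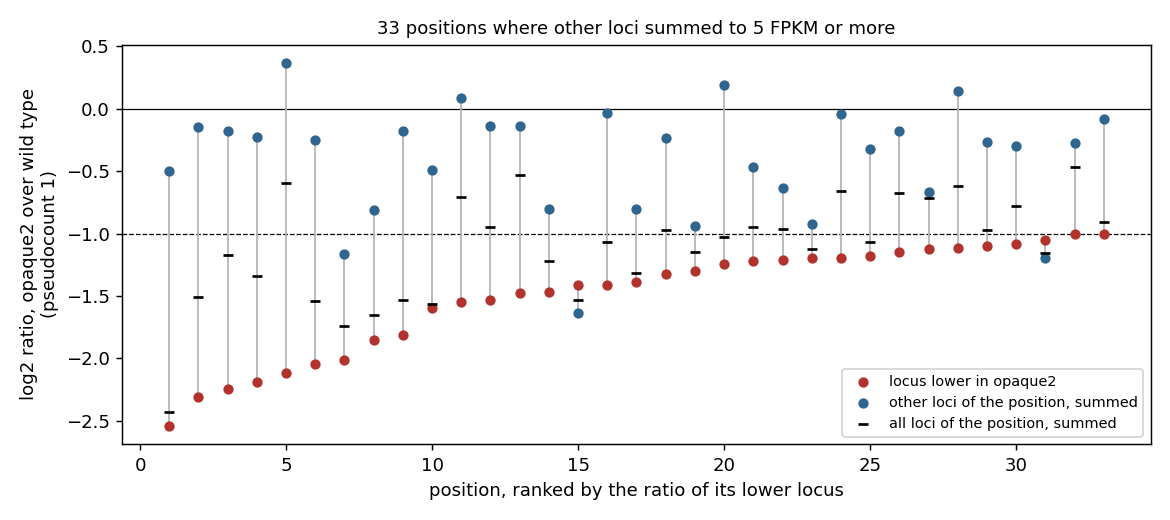
Log2 ratio of opaque2 over wild type (y axis, pseudocount 1) at the 33 positions where loci outside the set summed to 5 FPKM or more, ranked on the x axis by the ratio of the member. Red points are the members, blue points the sum of the other loci and black bars the sum of the position, and at 23 positions the blue point is within 1.5-fold of 0 on the log2 scale.

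Most members lay far from the next member of their chromosome. The 142 loci occupied 140 positions, and the median gap between consecutive ones of a chromosome was 7.93 Mb. Wide gaps follow from so few positions on 9 chromosomes, and gaps of other eligible loci were not measured. At 6 positions (4.23% of members) the next listed position was a member too, which made 3 neighbouring pairs. Of all eligible loci 2.77% were members, but a next listed position need not be eligible. These shares are therefore not alike, and nothing is read from them. On chromosome 2 the loci at 5068414 to 5069908 and 5071039 to 5071551 were 1.13 kb apart, with 21.8 and 27.2 FPKM in wild type and 10.05 and 8.87 FPKM in opaque2. On chromosome 3 the loci at 169313736 to 169314417 and 169317028 to 169317342 were 2.61 kb apart, with 22.6 and 77.4 FPKM in wild type and 7.40 and 19.7 FPKM in opaque2. The second of these had the shortest span of all members, 315 bp. On chromosome 5 the loci at 64335786 to 64339361 and 64355448 to 64361154 were 16.1 kb apart. They had 50.02 and 53.1 FPKM in wild type and 24.0 and 24.98 FPKM in opaque2, so that both pairs of values nearly coincided. One more member of the region, at 64289757 to 64294087, had 60.0 FPKM in wild type and 27.3 FPKM in opaque2. Between it and the pair 4 positions were listed, of which 1 reached 5 FPKM, and their log2 ratios ran from −0.92 to −0.04.

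A further 2 pairs of members lay within 100 kb of each other with other positions listed between them. On chromosome 6 the loci at 10106755 to 10108394 and 10165958 to 10168264 were 57.6 kb apart, with 112 and 72.0 FPKM in wild type and 49.8 and 31.97 FPKM in opaque2. Both were lower by nearly the same amount (log2 ratio −1.15), and the 1 position between them did not reach 5 FPKM. On chromosome 8 the loci at 173036044 to 173041846 and 173103213 to 173107748 were 61.4 kb apart, with 44.0 and 22.4 FPKM in wild type and 9.90 and 10.3 FPKM in opaque2. Of 6 positions between them 1 reached 5 FPKM, and their log2 ratios ran from −0.28 to 0.02.

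In fixed windows of 5 Mb, with borders at multiples of 5 Mb, none held more than 3 members. The borders part nearby members, so a stretch of 5 Mb placed elsewhere can hold more. On chromosome 4, for example, the member at 183912540 to 183913372 lay just before the window that starts at 185 Mb. Of 374 windows with eligible loci, 269 held no member, 76 held 1, 21 held 2 and 8 held 3. The highest share was 3 of 14 eligible loci on chromosome 6 at 30 to 35 Mb, the second highest member in wild type among them. Its other members had 112 and 66.4 FPKM in wild type and 42.8 and 29.8 FPKM in opaque2. On chromosome 4 at 185 to 190 Mb it was 3 of 17, with 37.8, 60.5 and 94.7 FPKM in wild type and 12.3, 21.7 and 29.7 FPKM in opaque2. Neither window held an eligible locus that was 2-fold or more higher in opaque2. Below the floor of the rule, the position on chromosome 6 at 33230527 to 33231069 had 5.79 FPKM in wild type and 14.7 FPKM in opaque2. On chromosome 9 at 20 to 25 Mb the share was 3 of 21, with log2 ratios of −2.44, −3.90 and −1.85. These windows were picked as high and only describe where members lay.

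Positions next to members were mostly similar in both genotypes. The nearest position without a member was taken on either side of each member position, which gave 280 neighbours at 273 distinct positions with a median log2 ratio of −0.02. Of the 280, 13 (4.64%) were 2-fold or more lower in opaque2, beside 1.7% of all 35197 positions without a member, and 11 (3.93%) were 2-fold or more higher, beside 2.74%. Many of these were hardly detected, so the nearest of 5 FPKM or more were also taken, a choice made after seeing the data. Their median gap to the member was 63.1 kb and their median log2 ratio was −0.12, beside −0.03 over all 13302 such positions without a member. These again numbered 280, at 269 distinct positions, since a position between members was counted for each of them. Differences under 1.5-fold were found at 213 of the 280 (76.1%).

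Neighbours 2-fold or more lower in opaque2 numbered 18 (6.43%), beside 2.5% of all such positions, and 11 (3.93%) were 2-fold or more higher, beside 3.83%. Over the 269 distinct positions these shares were 6.69% lower and 4.09% higher. Among the 63 neighbours less than 10 kb from a member, 7 were lower and 2 higher, among 105 at 10 to under 100 kb 3 were lower and 7 higher, and among 112 farther away 8 were lower and 2 higher. The lower neighbours were thus not restricted to the closest ones. With so few calls in each distance class and no replicate, no order with distance is read from them. One of the close ones lay 3.41 kb from the strongly lower locus of chromosome 9 at 23451431, with 11.9 FPKM in wild type and 2.68 FPKM in opaque2 (log2 ratio −1.81). A more distant one, on chromosome 3 at 192017604 to 192018957, had 336 FPKM in wild type and 1.87 FPKM in opaque2 in the sum of its loci (log2 ratio −6.88), and the main one of these was listed at 0 in opaque2. Its neighbouring member, 14.4 kb away at 192033354 to 192034113, had 30.5 FPKM in wild type and 12.7 FPKM in opaque2. Both were named after their values were seen.

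**Figure D5:**
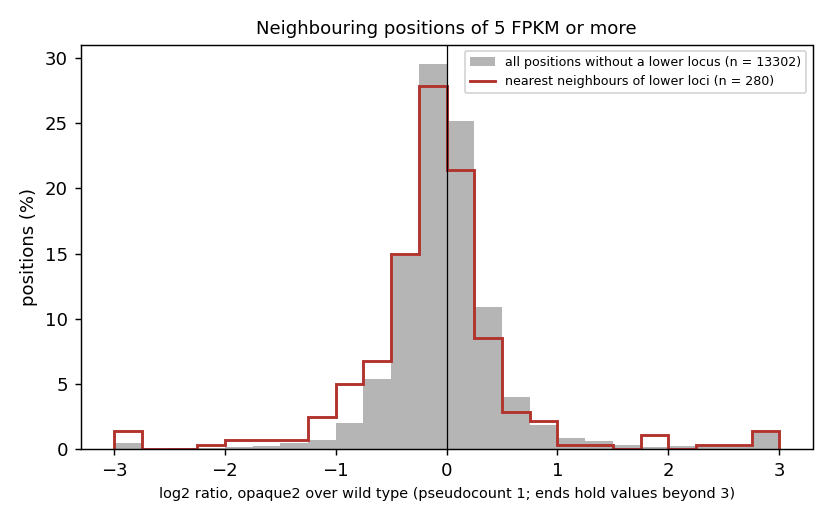
Distribution of log2 ratios between opaque2 and wild type (x axis, opaque2 over wild type, pseudocount 1) as a percentage of positions (y axis), for the 280 nearest neighbours of members, at 269 distinct positions (red line) and for all 13302 positions of 5 FPKM or more without a member (grey). The outermost bars also hold values beyond 3, and both distributions have their highest bar just below 0.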

How the data were processed

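RNA of wild type and opaque2 endosperm, 1 sample each, was analysed from the values the authors deposited, which are FPKM per the file headers. Bowtie 0.12.2 is named per the submitters' processing notes, without its role. The estimation program, build and annotation are not stated there. Starts in the files count from 0: of 84 mitochondrial starts, 48 equal a start of the RefSeq table of Zm-B73-REFERENCE-NAM-5.0 after adding 1, and 0 without it. Printed starts have 1 added. Of the 142 loci, 0 matched a gene of that table in start and end, so no names or sequences are given.

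Log2 ratios are of opaque2 over wild type on the log2(FPKM + 1) scale, and levels of one position were summed before its ratio. They understate differences of low loci. With 1 value per group no test was made. Loci described one by one were the 12 of lowest ratio, the 10 of highest wild type level and the highest of each chromosome, those at the limit of the ratio (given as a range beyond the first), neighbouring members within 100 kb and the 6 highest at positions shared with loci outside the set. Others are marked as named after their values were seen. The members, lists and bands were chosen with earlier results of these data known. The rule was tested on simulated data. Computations used pandas 2.3.3 with NumPy 2.4.6 in Python 3.11.15, intervals came from SciPy 1.17.1, and plots from Matplotlib 3.10.9.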

Additional observations from a re-analysis of the deposited data

How the results depend on the processing

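With equal totals, equal totals without the 6 highest loci and centring on the median ratio, 142, 131 and 146 loci met the rule, and 142, 131 and 142 of them were members. With pseudocounts of 0.1 and 5 the numbers were 148 and 115. A floor of 5 FPKM gave 340 loci, a floor of 40 FPKM gave 76, ratios of 0.25 and 0.67 gave 26 and 367, and positions with 1 locus alone gave 89, each by construction of a wider or narrower rule. Summing the loci of each position gave 143. The median log2 ratio of the set became −2.45 at a ratio of 0.25 and −0.84 at 0.67, and the log2 ratio of its sums −3.07 at 0.25. Members at shared positions made up 28.9% with a floor of 40 FPKM, 28.6% without a minimum span, 49.1% at 1000 bp or more and, by construction, 0% with unshared positions alone. At a ratio of 0.25, 0% had a member as the next listed position. For ratios a move of 1.5-fold, and for shares the 95% exact Clopper-Pearson interval, counted as a change, and the remaining values of these summaries stayed within that. The 35 loci named by the rule were lower in opaque2 under each scaling and pseudocount. This was fixed in advance, since a pseudocount cannot reverse an order and the scalings changed ratios by far less than 2-fold. Of their 175 values under those settings 14 moved by over 1.5-fold, each with another pseudocount, as for chromosome 6 at 121390345 with −7.33 at 0.1 and −4.13 at 5. Under all 3 scalings, 28 of the 35 stayed past 2-fold. No paired analysis was possible because there is a single value per locus for either genotype. The limits set by depth could not be measured without counts.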

Other observations

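Further loci of the same chromosome regions were lower by the same ratio but failed 1 other condition. Of these, 43 were shorter than 300 bp, 17 were listed at 0 in opaque2, 8 had a mean of 500 FPKM or more, and 198 had a higher value of 5 to under 20 FPKM. All loci of each kind, and those higher by the mirrored ratio, were not counted. The counts therefore give no share and do not show an excess of lower loci. The 17 loci listed at 0 in opaque2 had 24.8 to 932 FPKM in wild type. The 198 low loci had a median log2 ratio of −1.30. They were cut at the same ratio as the 142 members, so nothing is read from how near the medians of both sets are.

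The 8 loci above the ceiling include large differences outside the set. The highest of them in wild type, on chromosome 1 at 217831272 to 217831586, had 148797 FPKM in wild type and 48023.5 FPKM in opaque2 (log2 ratio −1.63). On chromosome 4 at 21312310 to 21313388, a position of 2 loci, one locus had 4979 FPKM in wild type and 202 FPKM in opaque2 (log2 ratio −4.62). On chromosome 6 at 44381573 to 44382522 the level was 20507 FPKM in wild type and 3384 FPKM in opaque2 (log2 ratio −2.60). Also on chromosome 6, the loci at 39088029 to 39088716 and 39092081 to 39092901 had 1650 and 1987 FPKM in wild type and 351 and 306 FPKM in opaque2. On chromosome 10 at 11913921 to 11914488 it was 2433 and 619 FPKM (log2 ratio −1.97). These loci were named after their values were seen.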
